A study of Mus musculus with 24 samples.

Results

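The genes described are the subunits of the vacuolar ATPase (V-ATPase), the proton pump of lysosomes and endosomes, and the genes of the autophagy machinery, as measured by RNA-Seq in NIH 3T3, a fibroblast line grown from mouse embryos. They were chosen by name as 38 mouse genes whose counts averaged at least 5 over the libraries, and 37 of them met that limit (16 V-ATPase and 21 autophagy genes, of 14361 genes in all that met it). Atp6v0d2, a d subunit isoform best known from osteoclasts and macrophages, averaged 1.08 counts, ranged from 0 to 6 counts and was not tested. The study asked how the fusion proteins of epithelioid hemangioendothelioma, TAZ-CAMTA1 and YAP-TFE3, change the transcriptome of the full-length proteins they derive from. Each of 8 groups held 3 libraries. All lines carried the pBabeNeo retroviral vector, were selected with G418 and were kept as pooled stable lines, so that each replicate is a separately transduced population of cells and not a clone. The vector was empty in EV and EVsub. In the other groups it expressed Flag-tagged TAZ4SA or YAP5SA (TAZ and YAP with the LATS1/2 phosphorylation sites mutated from serine to alanine), TAZ-CAMTA1, YAP-TFE3, or full-length CAMTA1 or TFE3. RNA of CAMTA1 came from sub-confluent cells, and that of the other proteins and of EV from cells held confluent for 48 h. EVsub, the control for CAMTA1, is titled sub-confluent, although the growth protocol in its label makes that exception for CAMTA1 alone.

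The V-ATPase is a rotary machine. Its cytosolic V1 sector hydrolyses ATP in a ring of A and B subunits, its membrane V0 sector carries the protons through a ring of c subunits and the a subunit, and the accessory proteins Atp6ap1 and Atp6ap2 help it assemble. Autophagy delivers cytoplasm to the lysosomes that this pump acidifies. The ULK kinase complex starts the process, the Becn1 lipid kinase complex marks the growing membrane with PI3P, WIPI proteins read that mark, the Atg12-Atg5-Atg16l1 complex attaches LC3 and GABARAP proteins to the membrane, and receptors such as Sqstm1, Optn and Nbr1 link cargo to them. TFE3 belongs to the MiT/TFE transcription factors, known to bind E-boxes with the core CACGTG and the longer palindrome TCACGTGA (the core of the CLEAR element) near genes of lysosomes and autophagy. TAZ and YAP act through TEAD factors, whose site has the core GGAATG.

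Library totals ranged from 16471181 to 30132586 counts (median 22298975). Levels are given as CPM, the counts scaled to a common library size with TMM factors, which adjust each library total so that the bulk of genes is level between libraries. Log2 fold changes were fitted with edgeR, and a gene is said to rise or fall where the Benjamini-Hochberg adjusted p of its quasi-likelihood test over all 14361 genes was under 0.05. Of the 10 fibroblast markers examined, all were detected in every group. One library stood apart: in TAZ4SA replicate 3 the mean log2 CPM of the V-ATPase genes was -0.73 relative to EV, against -0.19 and -0.07 in replicates 1 and 2, and that of the autophagy genes was -0.19, against 0.28 and 0.47. The counts of V-ATPase and autophagy genes called in TAZ4SA are therefore given with and without that library. In bulk RNA, fewer cells of a kind and less RNA per cell cannot be told apart. The TMM factors were 0.77 to 0.83 in YAP5SA, 0.81 to 1.04 in TAZ4SA and 1.00 to 1.09 in the other groups. The counts of V-ATPase and autophagy genes called in YAP5SA and TAZ4SA are given with another scaling beside them. Counts and fold changes of genes outside these chosen lists, and marker sums, are given with TMM factors and all libraries only. Exons of Atp6v0a2, Atp6v0b, Atp6v1e1, Atp6v1h, Sqstm1, Map1lc3b, Gabarapl1, Uvrag, Becn1, Atg9a, Atg14 and Optn overlap those of a gene on the other strand. Those of Atg9a also overlap exons of Gm29253 on the same strand. Whether reads were counted by strand is not given in the sources used here, so the values of all these genes are less certain.

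The promoters of these genes were searched for the motifs of both factor families. The RefSeq promoter table (GRCm38.p6, the mm10 assembly, 250 bases before to 50 after each start) had entries for 28 of the 38 genes, 11 of the V-ATPase genes with 13 promoters and 17 of the autophagy genes with 18 promoters. CACGTG, searched on both strands, stood in 30.8% of the V-ATPase promoters, in 16.7% of the autophagy promoters, in 7.15% of all promoters and in 9.71% of those of tested genes. TCACGTGA, which contains CACGTG, stood in 3 V-ATPase promoters (23.1%) and in 0 autophagy promoters. It stood in 0.974% of all promoters and in 1.85% of those of tested genes. This motif is known from genes of lysosomes, so a high share in V-ATPase promoters describes these genes and tests nothing. GGAATG was about as frequent among the V-ATPase promoters (15.4%) and the autophagy promoters (16.7%) as among all promoters (14.7%). The sequences of the V-ATPase promoters with CACGTG are shown because 3 of the 4 belong to genes that rose in TFE3 cells. Atg7 is shown as an autophagy gene with CACGTG. The share of all genes with CACGTG that rose in TFE3 cells was not counted, so the 3 of 4 has no background beside it. Capitals mark CACGTG or TCACGTGA, each strand is written 5′ to 3′, and positions count from the start site, with -1 the base before it.
Atp6v0b, chr4:117887315-117887395, minus strand, GRCm38.p6, CACGTG at -36 and -18: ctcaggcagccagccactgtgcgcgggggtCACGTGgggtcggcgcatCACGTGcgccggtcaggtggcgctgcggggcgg
Atp6v0d1, chr8:105566050-105566097, minus strand, GRCm38.p6, TCACGTGA at -4: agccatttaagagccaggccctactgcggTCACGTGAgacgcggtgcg
Atp6v1a, chr16:44139355-44139420, minus strand, GRCm38.p6, TCACGTGA at -132: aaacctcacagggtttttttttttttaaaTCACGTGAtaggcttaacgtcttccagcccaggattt
Atp6v0e, chr17:26676369-26676410, plus strand, GRCm38.p6, TCACGTGA at 3: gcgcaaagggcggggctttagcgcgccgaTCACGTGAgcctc
Atg7, chr6:114670934-114670999, plus strand, GRCm38.p6, CACGTG at -132: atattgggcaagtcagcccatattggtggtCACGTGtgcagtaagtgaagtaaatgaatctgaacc
These matches are letters in a window and not measured binding sites. Of the genes that rose in TFE3 cells and had an entry, Atp6v0b, Atp6v0d1 and Atp6v1a held CACGTG, and Atp6v1d and Optn did not, while Atp6v1c1 and Atp6v1h had no entry. Atp6v0e held TCACGTGA and had a log2 fold change of 0.14 (SE 0.15) in TFE3 cells, which did not pass the test. The autophagy genes with CACGTG were Atg7, Atg14 and Atg5, and 0 of these 3 passed the test in TFE3 cells, with log2 fold changes of 0.36, 0.25 and -0.08.

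In TFE3 cells several pump genes rose, and of the autophagy genes Optn alone passed the test. Against EV, 6 of the 16 V-ATPase genes rose and 0 fell, where 2.35% of all tested genes rose and 1.02% fell, and the median log2 fold change of the V-ATPase genes was 0.40, beside -0.02 for all genes. Of the 21 autophagy genes 1 rose, Optn, and 0 fell, and their median was 0.03. At an unadjusted p under 0.05, 12 V-ATPase genes were higher and 0 lower, while 3 autophagy genes were higher and 1 lower. The share of all genes at that unadjusted limit was not counted, here or in the comparisons below. With adjusted p DESeq2 also called 6 V-ATPase genes and 1 autophagy gene. All 3 TFE3 libraries lay above all 3 EV libraries for 14 of the 16 V-ATPase genes, which held for 15.0% of all genes, and for 7 of the 21 autophagy genes. The mean log2 CPM of the V-ATPase genes over that of the autophagy genes, relative to EV, was 0.33, 0.32 and 0.37 in the 3 libraries. It lay between -0.06 and 0.05 in the EV libraries.

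Of the V1 sector, 4 of 8 subunits rose in TFE3 cells. Atp6v1c1, the C subunit that joins V1 to V0, was at 105, 123 and 109 CPM in EV and at 214, 189 and 214 CPM in TFE3. Its log2 fold change was 0.87 (SE 0.14, edgeR adjusted p = 0.000757), the largest among the pump genes in this comparison. Atp6v1h, a regulatory subunit of the stalk, was at 136, 142 and 141 CPM in EV and at 244, 229 and 261 CPM in TFE3, a log2 fold change of 0.81 (SE 0.14, edgeR adjusted p = 0.00171). For both genes the groups did not overlap. Atp6v1a, the catalytic A subunit (ENSMUSG00000052459, chr16:44085402-44139705, minus strand), was at 308, 353 and 296 CPM in EV and at 512, 486 and 525 CPM in TFE3. It rose by 0.67 (SE 0.14, edgeR adjusted p = 0.00765), and without EV replicate 3 the adjusted p was 0.0534. Atp6v1d, part of the central rotor that turns against the ring, was at 96.8, 97.6 and 94.6 CPM in EV and at 148, 136 and 150 CPM in TFE3. Its groups did not overlap either. Its log2 fold change was 0.59 (SE 0.15), and its edgeR adjusted p of 0.0335 became 0.077 to 0.137 when any 1 of the 6 libraries was left out. The other V1 subunits had log2 fold changes of 0.19 (Atp6v1f) to 0.47 (Atp6v1e1), which did not pass the test.

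Of the V0 sector, 2 of 6 tested subunits rose in TFE3 cells. Atp6v0d1, the d subunit that couples the rotor to the membrane ring (ENSMUSG00000013160, chr8:105524465-105566047, minus strand), was at 238, 223 and 244 CPM in EV and at 395, 382 and 399 CPM in TFE3. This is a log2 fold change of 0.74 (SE 0.18, edgeR adjusted p = 0.0207), and leaving out any 1 of the 6 libraries gave adjusted p values of 0.0608 to 0.0824. Atp6v0b, the c'' subunit of the proton-carrying ring (ENSMUSG00000033379, chr4:117884326-117887333, minus strand), was at 190.2, 196 and 198 CPM in EV and at 299.6, 312 and 302 CPM in TFE3. It rose by 0.65 (SE 0.14, edgeR adjusted p = 0.0125), with adjusted p values of 0.0532 without EV replicate 1 and 0.0593 without TFE3 replicate 2. The a subunits Atp6v0a1 and Atp6v0a2, which form the proton path and direct the pump to its membrane, had log2 fold changes of 0.01 (SE 0.10) and 0.09 (SE 0.12). Neither passed the test. The accessory genes Atp6ap1 and Atp6ap2 had values of 0.35 and 0.39, which did not pass. The count of V-ATPase genes that rose was 3 without EV replicate 1, EV replicate 3 or TFE3 replicate 2, and 12 in a fit of the TFE3 and EV libraries alone. Rises over all genes moved too. They went from 338 to 189, 171 and 171 without these libraries, and to 914 in the fit of these groups alone.

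**Figure D1:**
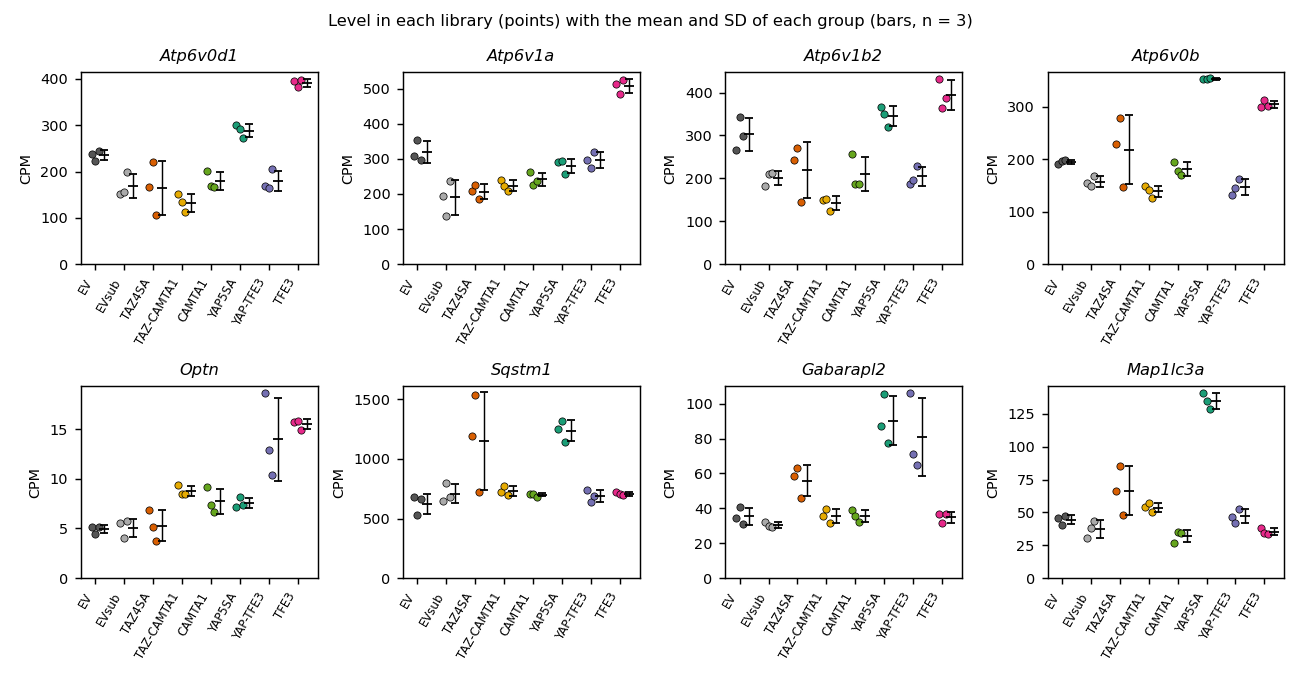
Level in TMM-normalized CPM (vertical axes, from 0) of 4 V-ATPase genes (top row) and 4 autophagy genes (bottom row) in the 8 groups (horizontal axes). Points are the 3 libraries of a group, and the bars give the mean and SD. Atp6v0d1 is highest in TFE3 (382 to 399 CPM) and lowest in TAZ4SA replicate 3, and Optn is at 10.4 to 18.6 CPM in YAP-TFE3 and at 4.49 to 5.17 CPM in EV.

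Optn, a receptor that binds ubiquitin-tagged cargo and LC3 proteins (ENSMUSG00000026672, chr2:5020642-5064051, minus strand), was the autophagy gene with the largest change in TFE3 cells. It was at 5.11, 4.49 and 5.17 CPM in EV and at 15.7, 15.8 and 14.9 CPM in TFE3, a 3.14-fold rise (log2 1.65, SE 0.21, edgeR adjusted p = 4.43e-05). The ULK kinases, LC3 and GABARAP genes, conjugation genes and the chosen genes of the Becn1 complex had log2 fold changes between -0.33 (Map1lc3a) and 0.36 (Atg7) in TFE3 cells. None of these passed the test. The 10 other autophagy receptors examined had log2 fold changes of -0.13 to 0.23, none past the test, and of 24 other core autophagy genes 1 rose and 1 fell. Among 10 genes for assembly and regulation of the V-ATPase, 4 rose and 0 fell, with a median of 0.36. Dmxl2, whose protein (rabconnectin) regulates assembly of V1 with V0, was at 16.2 ± 2.57 CPM in EV (SD, n = 3) and at 48.3 ± 3.54 CPM in TFE3. Its log2 fold change of 1.58 (SE 0.29) passed the test with an edgeR adjusted p of 0.0029.

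YAP-TFE3 joins the N-terminal part of YAP to a C-terminal part of TFE3 that keeps the DNA-binding domain. Against EV, 0 V-ATPase genes rose and 2 fell, where 10.6% of all genes rose and 4.74% fell, and the median of the V-ATPase genes was -0.13 beside 0.00 for all genes. At an unadjusted p under 0.05, 1 was higher and 4 lower, and with DESeq2 0 rose and 3 fell. Atp6v1b2, the B subunit of the ATP-hydrolysing ring, was at 266, 343 and 298 CPM in EV and at 187, 197 and 230 CPM in YAP-TFE3, a log2 fold change of -0.56 (SE 0.17, edgeR adjusted p = 0.0271). Atp6v1g1, a stalk subunit, was at 363, 278 and 375 CPM in EV and at 242, 203 and 265 CPM in YAP-TFE3, a log2 fold change of -0.52 (SE 0.16, edgeR adjusted p = 0.0254). Every YAP-TFE3 library lay below every EV library for both genes. The calls rest on single libraries: 0 V-ATPase genes passed the test without EV replicate 3, YAP-TFE3 replicate 1 or YAP-TFE3 replicate 2, 1 passed without EV replicate 1 or EV replicate 2, and 3 passed without YAP-TFE3 replicate 3. Falls over all genes were 365, 286 and 461 in the fits where 0 passed, against 680 with all libraries.

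The autophagy genes that rose with YAP-TFE3 were 3 of 21, Optn, Gabarapl2 and Uvrag, and 0 fell, with a median of -0.02. That share of rises (14.3%) was near the 10.6% of all genes. Optn was at 18.6, 12.9 and 10.4 CPM in the YAP-TFE3 libraries, a log2 fold change of 1.5 (SE 0.21, edgeR adjusted p = 1.9e-05). Gabarapl2, which encodes one of the GABARAP proteins (also called GATE-16), was at 34.5, 40.9 and 31.3 CPM in EV and at 106, 70.9 and 65.1 CPM in YAP-TFE3. It rose by 1.18 on the log2 scale (SE 0.16, edgeR adjusted p = 2.17e-05). Uvrag, a partner of Becn1 in the lipid kinase complex, was at 42.8, 45.7 and 45.8 CPM in EV and at 93.6, 64.2 and 69.4 CPM in YAP-TFE3, a log2 fold change of 0.76 (SE 0.14, edgeR adjusted p = 0.000369). In all 3 genes YAP-TFE3 replicate 1 was the highest library of its group, and every library of the group lay above EV. These calls held without any 1 library. The summed level of the 10 macrophage markers examined was 124 to 251 CPM in YAP-TFE3 and 6.25 to 8.02 CPM in EV. In both groups 2 of the defining markers, Adgre1 and Tyrobp, were at 0. Such sums rest on few genes. Over all 24 libraries Lyz2, Cd68 and Csf1r reached up to 4779, 1557 and 1041 counts, and Ptprc, Spi1 and Fcer1g at most 4, 3 and 6. The part of these markers in the rise of the autophagy genes was not tested.

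Set directly against full-length TFE3, most pump genes were lower in YAP-TFE3, while most autophagy genes did not pass the test. Of the V-ATPase genes 11 of 16 fell and 0 rose (8.62% and 14.3% of all genes), with a median log2 fold change of -0.64 beside 0.02 for all genes. Of the autophagy genes 3 rose and 0 fell, with a median of -0.04. Their share of rises (14.3%) was at the background of 14.3%. DESeq2 gave 3 rises and 2 falls of autophagy genes, with 2018 rises and 1567 falls over all genes. At an unadjusted p under 0.05, 4 autophagy genes were higher and 3 lower. The pump genes with the largest differences were Atp6v0d1, at 395, 382 and 399 CPM in TFE3 and 169, 165 and 205 CPM in YAP-TFE3 (log2 fold change -1.12, SE 0.18, edgeR adjusted p = 5.66e-05), and Atp6v0b (-1.06, SE 0.14, adjusted p = 1.07e-05). Atp6v1c1 followed with -0.97 (SE 0.14, edgeR adjusted p = 1.98e-05). Of the V1 sector 7 of 8 subunits fell, the exception being Atp6v1e1 (-0.04, SE 0.16), and of the V0 sector 3 of 6 did. The call of Atp6v1f was lost without any 1 of the 6 libraries (edgeR adjusted p = 0.0549 to 0.167) and with the replicate block (0.0562). Every YAP-TFE3 library lay below every TFE3 library for 13 V-ATPase genes, where 22.1% of all genes did so. The count of falling V-ATPase genes ranged from 9 to 10 when a library was left out. Gabarapl2 was 2.30-fold higher in YAP-TFE3 than in TFE3 (log2 1.20, SE 0.16, edgeR adjusted p = 1.05e-05), whereas the difference in Optn was -0.15 (SE 0.19, edgeR adjusted p = 0.649). Uvrag (0.40, adjusted p = 0.0347 by edgeR) and Atg9a (0.40, adjusted p = 0.0134) were the other rises. Both calls were lost without TFE3 replicate 3 (adjusted p = 0.0732 and 0.0734), and that of Uvrag also without TFE3 replicate 1 (0.0562), TFE3 replicate 2 (0.139) or YAP-TFE3 replicate 1 (0.396). Ccdc115, an assembly factor of the V-ATPase, was at 27.3 ± 1.38 CPM in TFE3 and 13.2 ± 1.68 CPM in YAP-TFE3 (SD, n = 3), a log2 fold change of -1.05 (SE 0.15, edgeR adjusted p = 1.43e-05). Its exons overlap those of Gm28306 on the same strand.

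**Figure D2:**
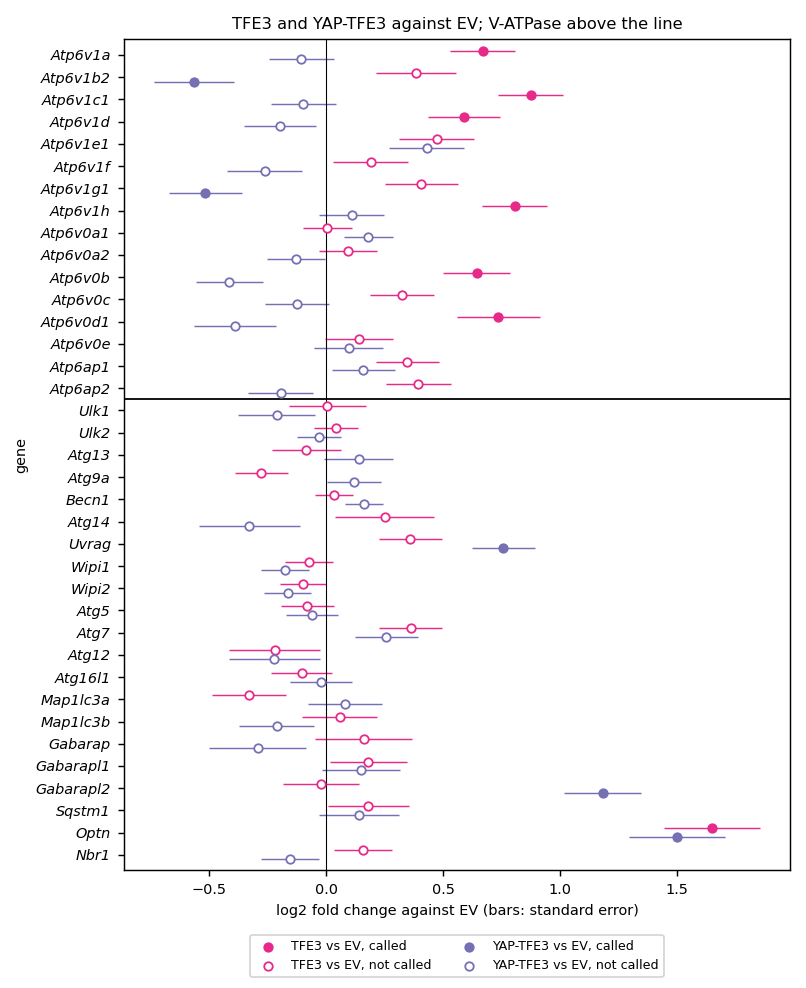
Log2 fold change against EV (horizontal axis, bars give the standard error) of the 37 tested genes (vertical axis, V-ATPase genes above the line) in TFE3 and in YAP-TFE3 cells, with filled points for genes called at an adjusted p under 0.05. The TFE3 points of the V-ATPase genes run from 0.01 to 0.87, and those of YAP-TFE3 from -0.56 to 0.43, and Optn is the highest value in each (1.65 and 1.5).

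In TAZ-CAMTA1 cells the pump genes were lower than in EV. Of the 16 V-ATPase genes 9 fell and 0 rose (background 8.98% and 12.5%), all 16 had a negative log2 fold change, and their median was -0.42, beside -0.00 for all genes. Every TAZ-CAMTA1 library lay below every EV library for 15 of them, where 22.4% of all genes did so. Atp6v1b2 was at 151, 152 and 124 CPM in TAZ-CAMTA1, against 266, 343 and 298 CPM in EV, a log2 fold change of -1.09 (SE 0.17, edgeR adjusted p = 7.9e-05). Atp6v1g1 was at 199, 183 and 145 CPM, a log2 fold change of -0.95 (SE 0.16, edgeR adjusted p = 0.000122), and Atp6v0d1 was at 152, 134 and 113 CPM, a log2 fold change of -0.82 (SE 0.18, edgeR adjusted p = 0.00171). In each of these genes replicate 3 was the lowest library of the group. The falls covered 5 of 8 V1 subunits and 4 of 6 V0 subunits, while Atp6ap1 and Atp6ap2 did not pass the test (-0.14 and -0.38). Without EV replicate 3 or without TAZ-CAMTA1 replicate 3, 4 V-ATPase genes fell. Falls over all genes were then 730 and 706, against 1289 with all libraries. The 3 genes named here were called in every such refit.

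Among the autophagy genes 2 rose and 5 fell in TAZ-CAMTA1 cells, with a median of -0.20. The share of rises (9.52%) was below the 12.5% of all genes, and that of falls (23.8%) above the 8.98%. Without EV replicate 1, EV replicate 3 or TAZ-CAMTA1 replicate 2, 4 autophagy genes passed the test. Rises and falls over all genes were then 1273 and 758, 1280 and 730, and 1317 and 710. They were 1799 and 1289 with all libraries. Atg12, the ubiquitin-like protein that is joined to Atg5, was at 145, 139 and 131 CPM in EV and at 84.99, 79.8 and 81.6 CPM in TAZ-CAMTA1 (log2 fold change -0.75, SE 0.20, edgeR adjusted p = 0.00789). Map1lc3b, which encodes the widely used autophagosome marker LC3B, was at 283, 261 and 282 CPM in EV and at 190, 174 and 154 CPM in TAZ-CAMTA1 (-0.67, SE 0.16, edgeR adjusted p = 0.00404). Both genes fell without overlap between the groups. Optn rose to 9.38, 8.43 and 8.46 CPM (0.83, SE 0.21, edgeR adjusted p = 0.0057). The other rise was Uvrag (58.6, 66.5 and 52.9 CPM, log2 fold change 0.41), whose edgeR adjusted p of 0.0343 became 0.0609 without TAZ-CAMTA1 replicate 1, 0.172 without TAZ-CAMTA1 replicate 2, and 0.119, 0.057 and 0.078 without EV replicates 1, 2 and 3. The remaining falls were Gabarap, Nbr1 and Ulk1, named after their values were seen because they complete the count. Gabarap was at -0.67, Nbr1 at -0.47 and Ulk1 at -0.49 on the log2 scale. The call of Gabarap was lost without EV replicate 1 (adjusted p = 0.0844), EV replicate 3 (0.076), TAZ-CAMTA1 replicate 2 (0.0852) or TAZ-CAMTA1 replicate 3 (0.1002). That of Ulk1 was lost without EV replicate 1 or 3 or any TAZ-CAMTA1 library (0.0613 to 0.15). Macrophage markers summed to 32.2 to 34.0 CPM in TAZ-CAMTA1, again with Adgre1 and Tyrobp at 0, and their part in these values was not tested. One further gene of the pump, the a subunit isoform Atp6v0a4 known from kidney intercalated cells, was at 5.37 ± 1.56 CPM in TAZ-CAMTA1 and 0.549 ± 0.1001 CPM in EV (SD, n = 3; log2 fold change 3.27, SE 0.44). Its exons overlap those of Tmem213 on the other strand and of D630045J12Rik on the same strand.

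**Figure D3:**
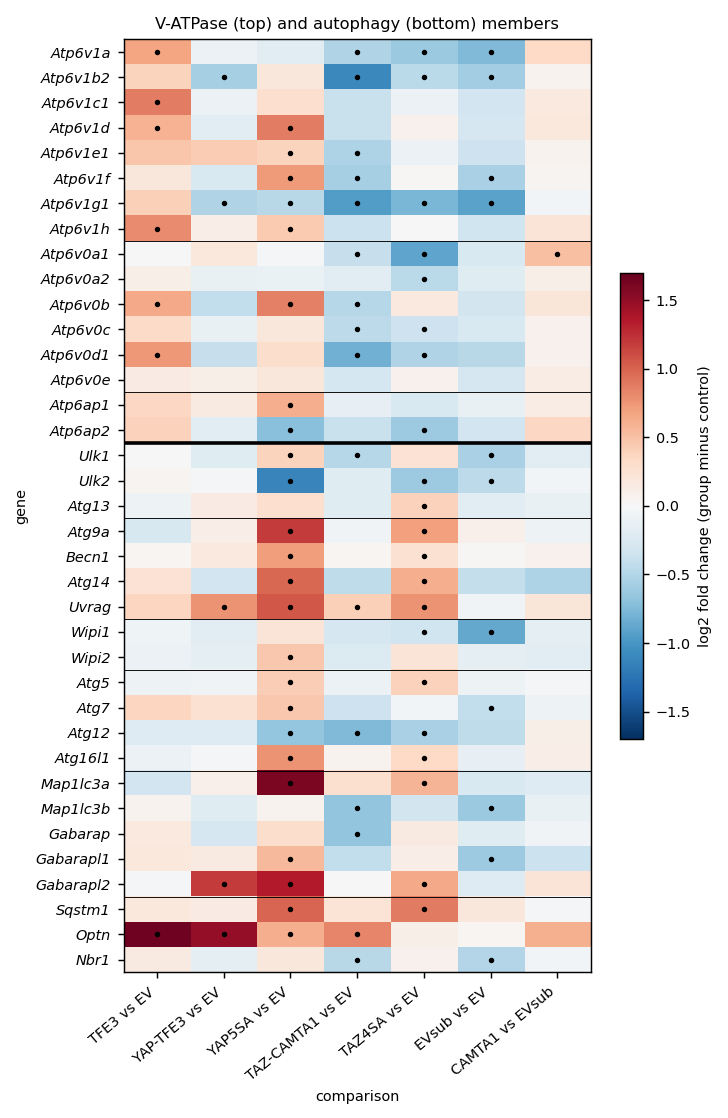
Log2 fold change (colour) of the 37 tested genes (rows, V-ATPase genes above the thick line, thin lines between roles) in each comparison with an empty vector group (columns). Dots mark genes called at an adjusted p under 0.05. The V-ATPase rows are above 0 throughout in TFE3 (0.01 to 0.87) and below 0 throughout in TAZ-CAMTA1 (-1.09 to -0.14) and EVsub (-0.91 to -0.13).

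In TAZ4SA cells the pump genes that passed the test fell, and most of the autophagy genes that passed it rose. Of the V-ATPase genes 8 fell and 0 rose (background 26.4% and 31.1%), with a median of -0.31, and of the autophagy genes 10 rose and 3 fell, with a median of 0.24, beside 0.05 for all genes. Without replicate 3, the library that stood apart, 5 V-ATPase genes fell and 2 rose (median -0.14), and 15 autophagy genes rose and 2 fell (median 0.43). Over all genes 4754 then rose and 4124 fell (median 0.04), against 4465 and 3788 with all libraries. The mean log2 CPM of the V-ATPase genes less that of the autophagy genes, relative to EV, was -0.47, -0.55 and -0.53 in the 3 libraries, so that replicate 3 did not stand apart in this difference. The V-ATPase genes that fell both with and without it were Atp6v0a1, Atp6v1g1, Atp6v1a, Atp6ap2 and Atp6v0a2. Scaling to total counts, without TMM factors, moved the median of all genes in this comparison from 0.05 to -0.13 and gave 9 V-ATPase falls and 0 rises, with 5 rises and 4 falls of autophagy genes. The share of calls over all genes that were rises was then 41.9%, against 54.1%. Marker sums moved with this group as well. Fibroblast markers summed to 20668 to 26273 CPM in TAZ4SA and 35779.6 to 39357 CPM in EV. Fn1 and Col1a2 lead this sum, with means of 301156 and 199609 counts over all libraries, while Fap averaged 37.6. Macrophage markers summed to 21.0 to 71.8 CPM, against 6.25 to 8.02 CPM in EV, with Adgre1 and Tyrobp at 0. The 5 endothelial markers examined summed to 8.70 to 12.3 CPM, against 2.34 to 4.6 CPM. Kdr and Tek lead the endothelial sum, with means of 44.0 and 30.6 counts over all libraries. The part of all these markers in the TAZ4SA values was not tested.

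Atp6v0a1 was at 117, 104 and 127 CPM in EV and at 59.3, 61.9 and 65.9 CPM in TAZ4SA, a log2 fold change of -0.89 (SE 0.11, edgeR adjusted p = 3.45e-07). Here replicate 3 was not low. Atp6v1g1 was at 221, 224 and 151 CPM in TAZ4SA (-0.77, SE 0.16, edgeR adjusted p = 0.000231), and Atp6v1a at 208, 226 and 186 CPM (-0.63, SE 0.14, edgeR adjusted p = 0.000586). The a subunit gene Tcirg1, best known from osteoclasts, moved in the opposite direction. It rose from 45.9 ± 2.51 CPM in EV to 113 ± 36.7 CPM in TAZ4SA (SD, n = 3; log2 fold change 1.30, SE 0.15), and to 141 ± 3.13 CPM in YAP5SA (1.62, SE 0.15). Per kilobase of merged exons, its share of the a subunit transcripts of Atp6v0a1, Atp6v0a2 and Tcirg1 was 27.0% ± 2.21 in EV, 59.3% ± 6.37 in TAZ4SA and 54.2% ± 1.43 in YAP5SA (SD, n = 3). It was 31.8% ± 3.17 in TAZ-CAMTA1, 27.6% ± 2.12 in YAP-TFE3, 26.9% ± 1.20 in TFE3, 36.0% ± 3.74 in EVsub and 35.1% ± 1.13 in CAMTA1. The lowest share in a TAZ4SA or YAP5SA library was 52.7%, and the highest in a library of any other group was 38.9%. The 8 osteoclast markers examined, 3 of them with a mean of at least 5 counts, summed to 22.3 to 27.3 CPM in TAZ4SA and 12.6 to 16.1 CPM in YAP5SA, against 58.8 to 70.2 CPM in EV, with Calcr at 0 in every group.

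The autophagy genes that rose most in TAZ4SA were Sqstm1, Uvrag and Atg9a. Sqstm1, which encodes the receptor p62, was at 677, 528 and 663 CPM in EV and at 1192, 1537 and 720.0 CPM in TAZ4SA (0.88, SE 0.17, edgeR adjusted p = 0.000166). Uvrag was at 72.0, 91.2 and 65.1 CPM (0.76, SE 0.14, edgeR adjusted p = 5.82e-05), and Atg9a, the membrane protein whose vesicles seed the autophagosome, was at 51.3, 57.9 and 57.4 CPM in EV and 90.4, 109 and 70.6 CPM in TAZ4SA (0.69, SE 0.11, edgeR adjusted p = 2.28e-05). In each of them TAZ4SA replicate 3 was the lowest library and still lay above EV. The 4 genes chosen for the Becn1 and Atg9a step (Becn1, Atg14, Uvrag and Atg9a) all rose, where 31.1% of all genes did. Other genes of the Becn1 complex, such as Pik3c3 and Pik3r4, were counted with the other core autophagy genes below. The call of Becn1 was lost without EV replicate 3 (edgeR adjusted p = 0.0536) or TAZ4SA replicate 1 (0.0746), and that of Atg14 without EV replicate 2 (0.0729), TAZ4SA replicate 1 (0.0529) or TAZ4SA replicate 2 (0.252). Both calls were also lost with total counts as the scaling (0.08, adjusted p = 0.502 for Becn1 and 0.38, adjusted p = 0.0761 for Atg14) and in a fit of these groups alone (0.225 and 0.184), and that of Becn1 without a filter on low counts (0.172). The 3 falls were Ulk2, Atg12 and Wipi1, given because they complete the count, and that of Atg12 was lost without EV replicate 1 (0.0546), TAZ4SA replicate 1 (0.0629) or TAZ4SA replicate 3 (0.0776). Of the other core autophagy genes examined 9 of 24 rose and 5 fell (37.5% and 20.8%), near the 31.1% and 26.4% of all genes. Among them Atg16l2, a paralog of the LC3 ligase subunit Atg16l1, had a log2 fold change of 2.20 (SE 0.28), Wdr45, a PI3P reader, of 1.26 (SE 0.13), and Atg4c, a protease that processes LC3 proteins, of -1.02 (SE 0.19). Retreg1, a receptor for the endoplasmic reticulum, had 1.18 (SE 0.16). Of the assembly and regulation genes Oxr1, a TLDc protein that can detach V1 from V0, had 1.93 (SE 0.25) and Dmxl2 -1.01 (SE 0.30), and all these passed the test. Exons of Atg16l2 overlap those of Fchsd2, and exons of Wdr45 those of Gm45208.

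In YAP5SA cells most autophagy genes rose, and the pump genes changed in both directions. Of the 21 autophagy genes 14 rose and 2 fell, with a median of 0.46, and of the 16 V-ATPase genes 6 rose and 2 fell, with a median of 0.24. These stand beside 36.3% rises and 34.9% falls and a median of 0.01 over all genes, so that the V-ATPase share of rises (37.5%) was near the background. Every YAP5SA library lay above every EV library for 10 V-ATPase genes and 18 autophagy genes, which held for 38.5% of all genes. The directions depend on the scaling: with total counts in place of TMM the median of all genes was -0.36, 4 V-ATPase genes rose and 5 fell (median -0.14), and 8 autophagy genes rose and 3 fell (median 0.09), while the share of rises among all calls went from 51.0% to 34.5%. The difference of the medians, -0.22, was -0.30 to -0.16 when a library was left out.

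Map1lc3a, encoding LC3A, was at 45.9, 40.8 and 46.9 CPM in EV and at 141, 135 and 128 CPM in YAP5SA, a log2 fold change of 1.59 (SE 0.16, edgeR adjusted p = 1.31e-08). Gabarapl2 was at 87.4, 106 and 77.7 CPM in YAP5SA (1.35, SE 0.16, edgeR adjusted p = 2.31e-07), and Atg9a at 128, 121 and 129 CPM (1.19, SE 0.11, edgeR adjusted p = 6.47e-09). The 4 genes chosen for the Becn1 and Atg9a step rose again, by 0.72 to 1.19, where 36.3% of all genes rose. Sqstm1 was at 1251, 1313 and 1142 CPM (0.99, SE 0.17, edgeR adjusted p = 2.77e-05). These genes kept their rise with total counts as the scaling. The falls, Ulk2 and Atg12, are outside the naming rule for this comparison and are given because they complete the count. Ulk2 was at 105, 108 and 110 CPM in EV and at 48.6, 51.8 and 48.3 CPM in YAP5SA (-1.12, SE 0.10, edgeR adjusted p = 1.19e-09), while its paralog Ulk1 had 0.37 (SE 0.16, edgeR adjusted p = 0.0459). That call of Ulk1 was lost with DESeq2 (0.0556) and without EV replicate 1 (0.0719), EV replicate 2 (0.173) or YAP5SA replicate 1, 2 or 3 (0.0811, 0.105 and 0.0631), and with total counts its value was -0.0012. Per kilobase, Ulk1 made up 41.7% ± 2.84 of the ULK transcripts in EV and 66.9% ± 0.35 in YAP5SA (SD, n = 3). Map1lc3a made up 50.7% ± 0.81 of the LC3 transcripts of Map1lc3a and Map1lc3b in EV, 65.9% ± 1.44 in TAZ4SA, 66.4% ± 1.81 in TAZ-CAMTA1 and 74.9% ± 0.41 in YAP5SA. Such shares lie within a library and do not depend on its scaling.

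**Figure D4:**
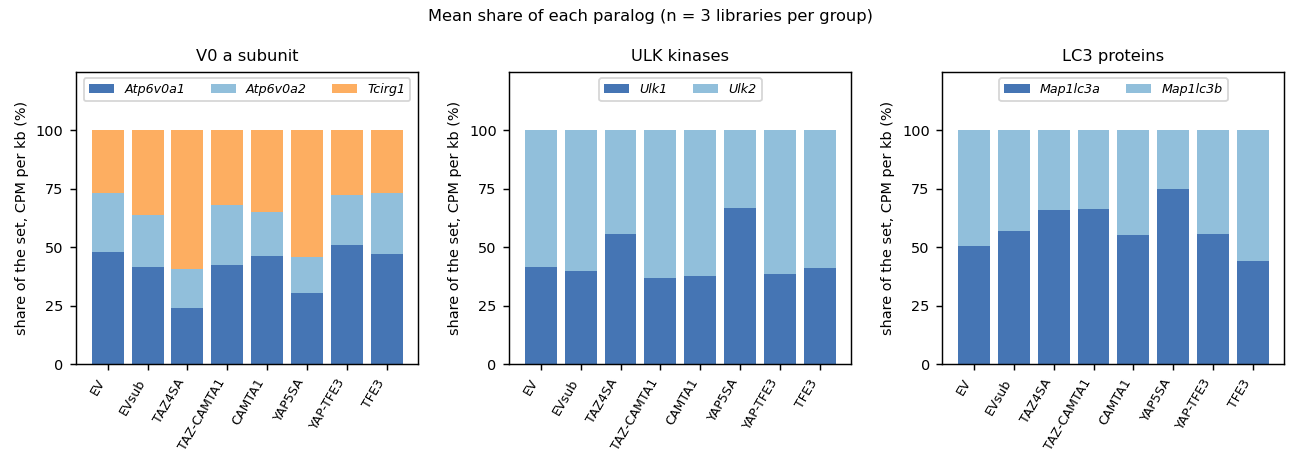
Mean share (vertical axis, percent of CPM per kilobase of merged exons, n = 3 libraries) of each paralog among the a subunit genes, the ULK kinases and the LC3 genes in the 8 groups (horizontal axis). Tcirg1 holds 59.3% and 54.2% of the a subunit set in TAZ4SA and YAP5SA and 27.0% in EV, and Ulk1 holds 66.9% of its set in YAP5SA.

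Of the pump genes, Atp6v1d was at 176, 188 and 166 CPM in YAP5SA against 96.8, 97.6 and 94.6 CPM in EV (0.87, SE 0.15, edgeR adjusted p = 2.82e-05), and Atp6v0b at 352, 352 and 354 CPM (0.86, SE 0.14, edgeR adjusted p = 1.57e-05). Atp6v1f, a subunit of the central rotor, was at 112, 107 and 123 CPM in EV and at 199, 188 and 176 CPM in YAP5SA (0.72, SE 0.16, edgeR adjusted p = 0.000443). All 3 rose under total counts as well. The falls were Atp6ap2 (-0.71, SE 0.14) and Atp6v1g1 (-0.47, SE 0.16), and the latter was lost without EV replicate 3 (edgeR adjusted p = 0.0532) or YAP5SA replicate 3 (0.0522). Of the 4 tested other isoforms 3 rose: Tcirg1, Atp6v0e2 (1.98, SE 0.32) and Atp6v1g2 (1.80, SE 0.26), both of the latter best known from the nervous system. Of 10 assembly and regulation genes 2 rose and 6 fell, and Dmxl1 and Dmxl2 had log2 fold changes of -1.25 (SE 0.27) and -1.39 (SE 0.31). Of the other core autophagy genes 9 of 24 rose and 7 fell (37.5% and 29.2%), near the shares of all genes. Those with the largest changes ran from Atg16l2 (2.60, SE 0.29), Wdr45 (1.80, SE 0.13), Atg101 (1.14, SE 0.14) and Atg4d (1.11, SE 0.13) to Stx17 (-1.14, SE 0.14) and Atg4c (-2.25, SE 0.21). Of the other receptors, 5 of 10 rose and 4 fell, with Retreg1 at 1.64 (SE 0.16) and the mitochondrial receptor Fundc1 at -1.19 (SE 0.13). Macrophage markers summed to 87.1 to 137 CPM in YAP5SA, with Adgre1 and Tyrobp at 0, endothelial markers to 7.99 to 9.12 CPM, and fibroblast markers to 28502 to 33417 CPM. The part of these markers in the YAP5SA values was not tested.

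Most autophagy genes were lower with either fusion protein than with the activated form (TAZ4SA or YAP5SA) of the protein that gives its N-terminal part. In TAZ-CAMTA1 against TAZ4SA 13 of 21 autophagy genes fell and 2 rose (median -0.45, background 28.1% and 26.6%), and in YAP-TFE3 against YAP5SA 13 fell and 2 rose (median -0.40, background 34.5% and 36.4%). Of the V-ATPase genes 7 fell and 1 rose in the first comparison (median -0.29) and 9 fell and 1 rose in the second (median -0.33). The medians of all genes were 0.00 and 0.05. With total counts as the scaling those became 0.17 and 0.41, and the V-ATPase counts turned to 4 rises and 3 falls, and to 6 rises and 4 falls. The autophagy counts were then 11 falls and 2 rises, and 6 falls and 3 rises, and the share of rises among all calls went from 48.5% to 62.0% and from 51.4% to 67.6%. Atg9a had a log2 fold change of -0.75 (SE 0.11, edgeR adjusted p = 1.17e-05) in the first comparison and -1.07 (SE 0.11, adjusted p = 3.35e-08) in the second. Map1lc3a was at -1.51 in YAP-TFE3 against YAP5SA (SE 0.16, edgeR adjusted p = 3.03e-08), whereas Gabarapl2, which rose against EV with either protein, differed by -0.16 (SE 0.16, adjusted p = 0.374). Optn was higher in either fusion protein, by 0.73 (SE 0.21, edgeR adjusted p = 0.0054) over TAZ4SA and by 0.89 (SE 0.20, adjusted p = 0.000506) over YAP5SA. The other rises were named after their values were seen. Ulk2 had a log2 fold change of 0.41 (SE 0.10, edgeR adjusted p = 0.000991) over TAZ4SA and of 1.09 (SE 0.10, adjusted p = 2.2e-09) over YAP5SA. The V-ATPase genes that rose were Atp6v0a1 over TAZ4SA (0.50, SE 0.11, edgeR adjusted p = 0.000406) and Atp6ap2 over YAP5SA (0.52, SE 0.14, edgeR adjusted p = 0.00223). Without TAZ4SA replicate 3, 17 autophagy genes and 9 V-ATPase genes fell in TAZ-CAMTA1 against TAZ4SA. Without TAZ4SA replicate 2 or TAZ-CAMTA1 replicate 3, 3 V-ATPase genes fell. Falls over all genes were 4361 without TAZ4SA replicate 3, 3475 without TAZ4SA replicate 2 and 3569 without TAZ-CAMTA1 replicate 3. They were 4041 with all libraries. All comparisons with EV share its 3 libraries.

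In EVsub the pump and autophagy genes that passed the test were all lower than in EV. Of the V-ATPase genes 4 fell and 0 rose (background 9.59% and 12.5%), with all 16 log2 fold changes negative and a median of -0.32, and 7 autophagy genes fell and 0 rose, with a median of -0.22, beside 0.02 for all genes. Every EVsub library lay below every EV library for 14 V-ATPase genes and 9 autophagy genes, where 16.7% of all genes did so. At an unadjusted p under 0.05, where the share of all genes was not counted, 11 V-ATPase and 8 autophagy genes were lower and 0 of either were higher. The 4 V-ATPase falls all lay in the V1 sector. Atp6v1g1 was at 168, 176 and 196 CPM in EVsub (-0.91, SE 0.16, edgeR adjusted p = 0.000278), Atp6v1a at 195, 138 and 238 CPM (-0.75, SE 0.14, adjusted p = 0.000614) and Atp6v1b2 at 183, 209 and 213 CPM (-0.58, SE 0.17, adjusted p = 0.0175), each below all EV libraries. The call of Atp6v1b2 was lost without EV replicate 2 (0.0742) or EVsub replicate 1 (0.0783). The remaining fall, named after its value was seen to complete the count, was Atp6v1f (-0.55, SE 0.16, edgeR adjusted p = 0.0174), and it was lost without EV replicate 3 (0.075), EVsub replicate 1 (0.0814) or EVsub replicate 2 (0.0776). Wipi1, which reads PI3P on the growing membrane, was at 157, 158 and 160.5 CPM in EV and at 78.7, 81.2 and 101 CPM in EVsub (-0.86, SE 0.10, edgeR adjusted p = 9.55e-06). Map1lc3b was at 152, 172 and 211 CPM (-0.62, SE 0.16, edgeR adjusted p = 0.00727), and Gabarapl1, a GABARAP paralog, was at 313, 282 and 301 CPM in EV and 159, 210.3 and 214 CPM in EVsub (-0.62, SE 0.17, adjusted p = 0.00971). The call of Gabarapl1 was lost without EVsub replicate 1 (0.0674), and 4 autophagy genes fell without that library. Falls over all genes were then 851, against 1377 with all libraries. The difference of the medians was -0.10, and it was 0.0046 without EVsub replicate 3.

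In CAMTA1 cells a single gene of the 37 passed the test. Against EVsub 1 V-ATPase gene rose, Atp6v0a1, and 0 fell (background 1.29% and 0.891%), and 0 autophagy genes rose or fell by edgeR or DESeq2. At an unadjusted p under 0.05, 3 V-ATPase genes were higher, 1 autophagy gene was higher and 2 were lower. The medians were 0.12 and -0.06, beside -0.03 for all genes. Atp6v0a1 was at 94.2, 83.8 and 112 CPM in EVsub and at 139, 137 and 137 CPM in CAMTA1 (0.51, SE 0.10, edgeR adjusted p = 0.0114). Its adjusted p was 0.103 without EVsub replicate 2 and 0.175 in a fit of these groups alone.

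**Figure D5:**
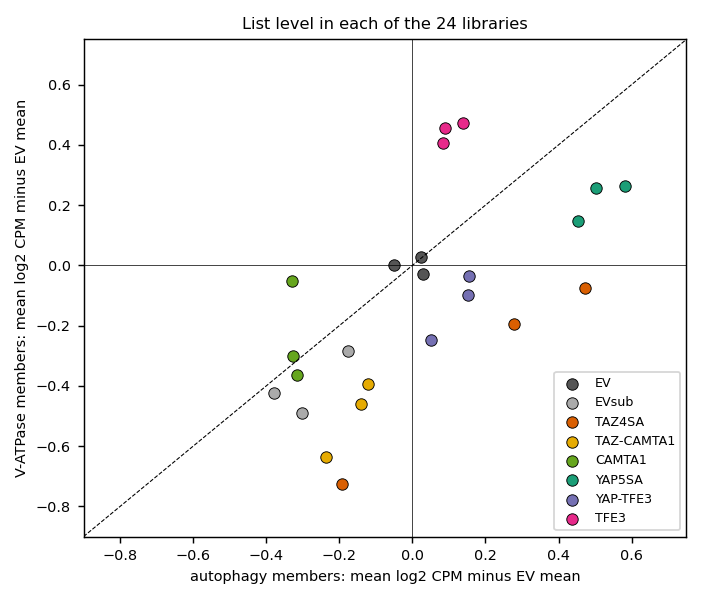
Mean log2 CPM of the 16 V-ATPase genes (vertical axis) against that of the 21 autophagy genes (horizontal axis) in each of the 24 libraries, both relative to the mean of EV. The dashed line marks equal values. TFE3 lies above the line at 0.41 to 0.47 on the V-ATPase axis, and every library of TAZ4SA, YAP5SA, TAZ-CAMTA1, YAP-TFE3 and EVsub lies below it, with TAZ4SA replicate 3 at -0.73.

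Across the groups 9 genes rose in a comparison with an empty vector and fell in another: Atp6v0d1, Atp6v1a, Atp6v0a1, Atp6v0b, Atp6v1f, Gabarapl1, Ulk1, Atp6v1e1 and Atg7. Several of these opposite calls did not hold. Losses of Ulk1, of Atp6v0a1 (against EVsub), and of Atp6v0d1, Atp6v0b and Atp6v1a in TFE3 are given above. In TAZ-CAMTA1 the fall of Atp6v0b was lost without EV replicate 3 (edgeR adjusted p = 0.054) or TAZ-CAMTA1 replicate 3 (0.0864). That of Atp6v1f was lost in these fits (0.0703 and 0.0849) and without TAZ-CAMTA1 replicate 2 (0.0514). Those of Atp6v0a1 (0.0669, without EV replicate 3) and Atp6v1a (0.0544, without TAZ-CAMTA1 replicate 3) were lost too. The rise of Atp6v1e1 in YAP5SA was lost with total counts (0.0031, edgeR adjusted p = 0.985) and when EV replicate 1, 2 or 3 or YAP5SA replicate 1 or 2 was left out (0.0584 to 0.11), and its fall in TAZ-CAMTA1 without EV replicate 1 or 3 or TAZ-CAMTA1 replicate 2 or 3 (0.0592 to 0.0991). The rise of Atg7 in YAP5SA was lost with total counts (0.08, edgeR adjusted p = 0.513), and its fall in EVsub without EV replicate 1 (0.073), EV replicate 3 (0.0932) or EVsub replicate 1 (0.144). That of Gabarapl1 in YAP5SA was lost with total counts (adjusted p = 0.24 by edgeR). The widest span was that of Atp6v0d1, 1.56 on the log2 scale. Its mean level was 392 ± 8.68 CPM in TFE3, 289 ± 14.0 in YAP5SA, 235 ± 10.9 in EV, 180 ± 22.4 in YAP-TFE3, 179 ± 19.5 in CAMTA1, 169 ± 26.7 in EVsub, 165 ± 57.6 in TAZ4SA and 133 ± 19.4 in TAZ-CAMTA1 (SD, n = 3). From YAP-TFE3 down to TAZ-CAMTA1 the range of each group overlaps that of the next, and the ranges of TFE3, YAP5SA and EV overlap neither each other nor those below. Atp6v1a spanned 1.42, with 508 ± 20.04 CPM in TFE3 and 190 ± 50.1 in EVsub, and Atp6v0b spanned 1.35, with 353 ± 1.51 CPM in YAP5SA, 304 ± 6.65 in TFE3, 195 ± 3.92 in EV and 139 ± 10.9 in TAZ-CAMTA1. Atp6v0b thus rose in both TFE3 and YAP5SA, while Atp6v1a rose in TFE3 and had a log2 fold change of -0.19 (SE 0.14) in YAP5SA. Within EV, levels per kilobase of merged exons were highest for Atp6v1g1 (298 ± 46.4 CPM per kb), Gabarap (297 ± 28.2) and Sqstm1 (186 ± 24.5) and lowest for Optn (1.31 ± 0.10, SD, n = 3), so that the autophagy gene with the largest rise in TFE3 was also the least abundant of the 37. Nearly all d subunit transcripts came from Atp6v0d1, at 99.9% to 100% per kilobase in every group.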

How the data were processed

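RNA-Seq was done on 24 libraries of 8 groups, 3 replicates each, with poly(A) selection and a stranded protocol. Per the labels and the study's methods, reads were demultiplexed with bcl2fastq and aligned with Hisat2 to mm10 with Ensembl annotation, and the authors deposited raw counts per Ensembl gene for each library. The methods also name Salmon, with tximport for the summary by gene. Which of these routes gave the deposited counts, and the strand setting, are not given in the sources used here. The title of YAP-TFE3 replicate 3 was followed where its description gives another number. Of 39017 identifiers, 37693 were matched to the GENCODE annotation of GRCm38. The 14361 genes whose counts averaged 5 or more were tested with edgeR 4.0.16 in R 4.3.3 (TMM factors, 1 quasi-likelihood fit of all groups, Benjamini-Hochberg adjustment, threshold 0.05), which was first tested on simulated data. DESeq2 1.42.0, other scalings, filters, fits of only the groups compared, a replicate block and fits without each library were the alternatives. The 38 genes and all lists were chosen with earlier results of these data known.

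Library totals of 16471181 to 30132586 counts limit the precision of low genes such as Optn. Values are given in every library for the 3 genes of each list with the largest called changes against an empty vector, and for the 4 genes with the widest span among those called in both directions. Genes of the supporting lists are named where they passed the test and changed by 1 or more on the log2 scale. Levels per kilobase use the merged exon length. Promoters are from RefSeq on GRCm38.p6, and of 31 promoters of the chosen genes 23 had their bases after the start in a GENCODE transcript of the gene. No pair of replicate libraries agreed within sampling noise, so each counts as its own. Replicate numbers did not pair the samples: same-numbered libraries correlated from -0.15 to 0.41 in their deviations from the group means, and 8 of 24 were closest to a library of their own number.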

Additional observations from a re-analysis of the deposited data

How the results depend on the processing

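Counts are of genes that passed the test, and calls over all genes moved as well when a library was left out. With 1 library left out at a time, V-ATPase and autophagy counts were 4 to 9 and 4 to 6 in TAZ-CAMTA1 against EV, 6 to 9 and 9 to 17 in TAZ4SA, 0 to 3 and 3 in YAP-TFE3, 6 to 8 and 15 to 16 in YAP5SA, 3 to 4 and 1 in TFE3, 0 to 1 and 0 in CAMTA1 against EVsub, and 3 to 6 and 4 to 8 in EVsub against EV. They were 4 to 10 and 12 to 19 in TAZ-CAMTA1 against TAZ4SA, 7 to 10 and 13 to 17 in YAP-TFE3 against YAP5SA, and 9 to 10 and 1 to 3 in YAP-TFE3 against TFE3. The V-ATPase median less the autophagy median then ran from -0.26 to -0.19 in TAZ-CAMTA1, -0.59 to -0.48 in TAZ4SA, -0.16 to -0.0705 in YAP-TFE3, -0.30 to -0.16 in YAP5SA, 0.36 to 0.41 in TFE3, 0.10 to 0.26 in CAMTA1 and -0.17 to 0.0046 in EVsub, where it changed sign without EVsub replicate 3. It ran from 0.0808 to 0.24, from 0.07 to 0.10 and from -0.63 to -0.56 in the 3 direct comparisons in the same order.

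With total counts in place of TMM, 9 V-ATPase genes (4 rises, 5 falls) were called in YAP5SA, 7 (4 and 3) in TAZ-CAMTA1 against TAZ4SA, 10 (6 and 4) in YAP-TFE3 against YAP5SA and 4 in YAP-TFE3. Autophagy calls were 11 in TAZ-CAMTA1 against EV, 9 in YAP-TFE3 against YAP5SA and 6 in YAP-TFE3 against TFE3. Under it Ulk1 in YAP5SA was at -0.0012, and in YAP-TFE3 against YAP5SA Atp6v1h was at 0.0262, Nbr1 at 0.0138 and Atp6v0c at 0.0399, each past 0 from its reported sign. In fits of only the groups compared, V-ATPase and autophagy counts were 14 and 13 in TAZ-CAMTA1, 5 and 7 in TAZ4SA, 12 and 4 in TFE3, and 2 and 9 in TAZ-CAMTA1 against TAZ4SA. V-ATPase counts were 5 in YAP-TFE3 and 0 in CAMTA1, and 9 autophagy genes were called in YAP-TFE3 against TFE3. In these fits the rises and falls over all genes moved as well. They were 2402 and 1995 in TAZ-CAMTA1 (1799 and 1289 in the main fit) and 3109 and 2910 in TAZ4SA (4465 and 3788). In TFE3 they were 914 and 598 (338 and 146), and in CAMTA1 21 and 1 (185 and 128). Without a filter on low counts 4 V-ATPase genes were called in YAP-TFE3. Autophagy calls in YAP-TFE3 against TFE3 were 5 with DESeq2, with its size factors, without the filter or with at least 10 counts in every library. These fits differ in the scaling, the genes or the libraries they use, and the cause was not tested. With the replicate number as a block (replicate block) the V-ATPase and autophagy counts in TFE3 stayed at 6 and 1, in TAZ-CAMTA1 they were 10 and 7, in YAP5SA 8 and 15 and in YAP-TFE3 against TFE3 10 and 3, and no count moved by over 1.5 times. No other list count under these alternatives moved by over 1.5 times (117 of 140).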
